A study of Mus musculus with 20 samples.

Results

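The 8 genes described here are the caspases Casp2, Casp6, Casp8 and Casp9, the electron carrier and apoptosis trigger Cycs (cytochrome c), the caspase inhibitors Xiap and Birc2, and their antagonist Diablo. They were chosen by name as genes of the caspase pathway, with no threshold on their values. They are 8 of 18193 genes with a named probe set on the array, and all 8 were among the 11859 genes bright enough to be tested. A probe set is a group of short oligonucleotides designed against a transcript or against transcripts that share sequence, and each gene was read at its brightest probe set. The annotation gave 21 probe sets for the 8 genes, of which 14 were bright enough to be tested on their own.

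Lens RNA of 20 mice was hybridised to Affymetrix arrays, with both lenses of a mouse on each array and 5 arrays in each of 4 groups. Controls were E2F2-/- lenses, taken at embryonic stage E17.5 or at birth (stage P0). The triple knockout, here TKO, had Cry-Cre, E2F1-/-, E2F2-/- and E2F3f/f at the same stages, so that E2F2 was missing from all 20 lens pairs and Cre was present in the TKO groups only. Cry names the crystallin promoter that drives Cre in the lens, so E2F3 could be deleted only where and when that promoter was active. The study asked what precedes the collapse of neonatal lenses that lack these 3 factors. Values are log2 signals, on which a difference of 1 is a doubling.

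Caspases are proteases that are made as inactive precursors. Initiator caspases are activated on platforms that bring several precursors together: Casp8 at death receptors, Casp9 on the apoptosome that Apaf1 builds when cytochrome c leaves the mitochondria, and Casp2 on a complex with Pidd1 and Cradd. Initiators cut executioner caspases, which cut many cell proteins, while inhibitor of apoptosis proteins (IAPs) such as Xiap hold caspases in check and are themselves bound by Diablo. Maturing lens fibre cells remove their nuclei and mitochondria in normal development, and arrays of mRNA do not show whether a caspase was active.

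Several features of the arrays moved with genotype. The tissue label names lens and the cell type label epithelial cells, but 9 of 9 lens fibre markers were above the array median on all 20 arrays, as were 7 of 8 lens epithelium markers. At P0, 12 of 14 tested retina markers, 6 of 7 pigment cell markers and 4 of 7 macrophage markers were called higher in TKO lenses, and 6 of 8 lens epithelium markers were called lower and 2 higher. The mean log2 signal of the retina markers was 4.63 to 5.95 on control P0 arrays and 6.19 to 7.45 on TKO P0 arrays; for pigment cells it was 6.09 to 6.62 and 7.11 to 7.90, for macrophages 5.23 to 6.21 and 5.85 to 6.96, and for lens epithelium 8.56 to 8.88 and 7.59 to 8.58. Rcvrn (retina), Rpe65 (pigment epithelium), Aif1 and Cd68 (macrophages) were above the array median on no array. At E17.5 limma called 0 markers of these 4 lists (at an unadjusted p below 0.05, 3 of lens epithelium and 0 of the others), and the retina mean was 5.48 to 6.57 on control and 5.67 to 7.81 on TKO arrays. The Gapdh 5' minus 3' signal, a sign of RNA length, was -0.06 to 0.06 on control arrays and 0.10 to 0.20 on TKO arrays over both stages. The TKO E17.5 replicates 24 and 27 correlated more with control arrays of their stage than with their own group. E2f1 signal was 7.15 to 7.24 on control and 7.55 to 7.95 on TKO E17.5 arrays, and E2f3 was 8.33 to 8.60 and 8.02 to 8.54. The sources used here do not give where these probes lie against the deleted exons, so they do not check the labels.

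At birth, 6 of the 8 genes differed between TKO and control lenses, against 1 at E17.5. At P0, 5 were higher (Casp2, Casp6, Casp8, Cycs and Diablo) and 1 was lower (Birc2) at an adjusted p below 0.05, while Casp9 and Xiap did not pass. Over all genes tested, 39.6% were called at P0, 20.2% higher and 19.4% lower. In 4 of the 8 the 5 TKO arrays lay wholly apart from the 5 control arrays (Casp6, Cycs, Birc2 and Diablo), as they did for 25.9% of all genes. At E17.5, Cycs alone was called, against 2.89% of all genes, and Cycs and Xiap had groups that did not overlap, against 9.95% of all genes. The median log2 change of the 8 was 0.17 at E17.5 and 0.21 at P0, and over all genes it was -0.03 and -0.01. With whole lenses, fewer cells of a type and less RNA per cell cannot be told apart.

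**Figure D1:**
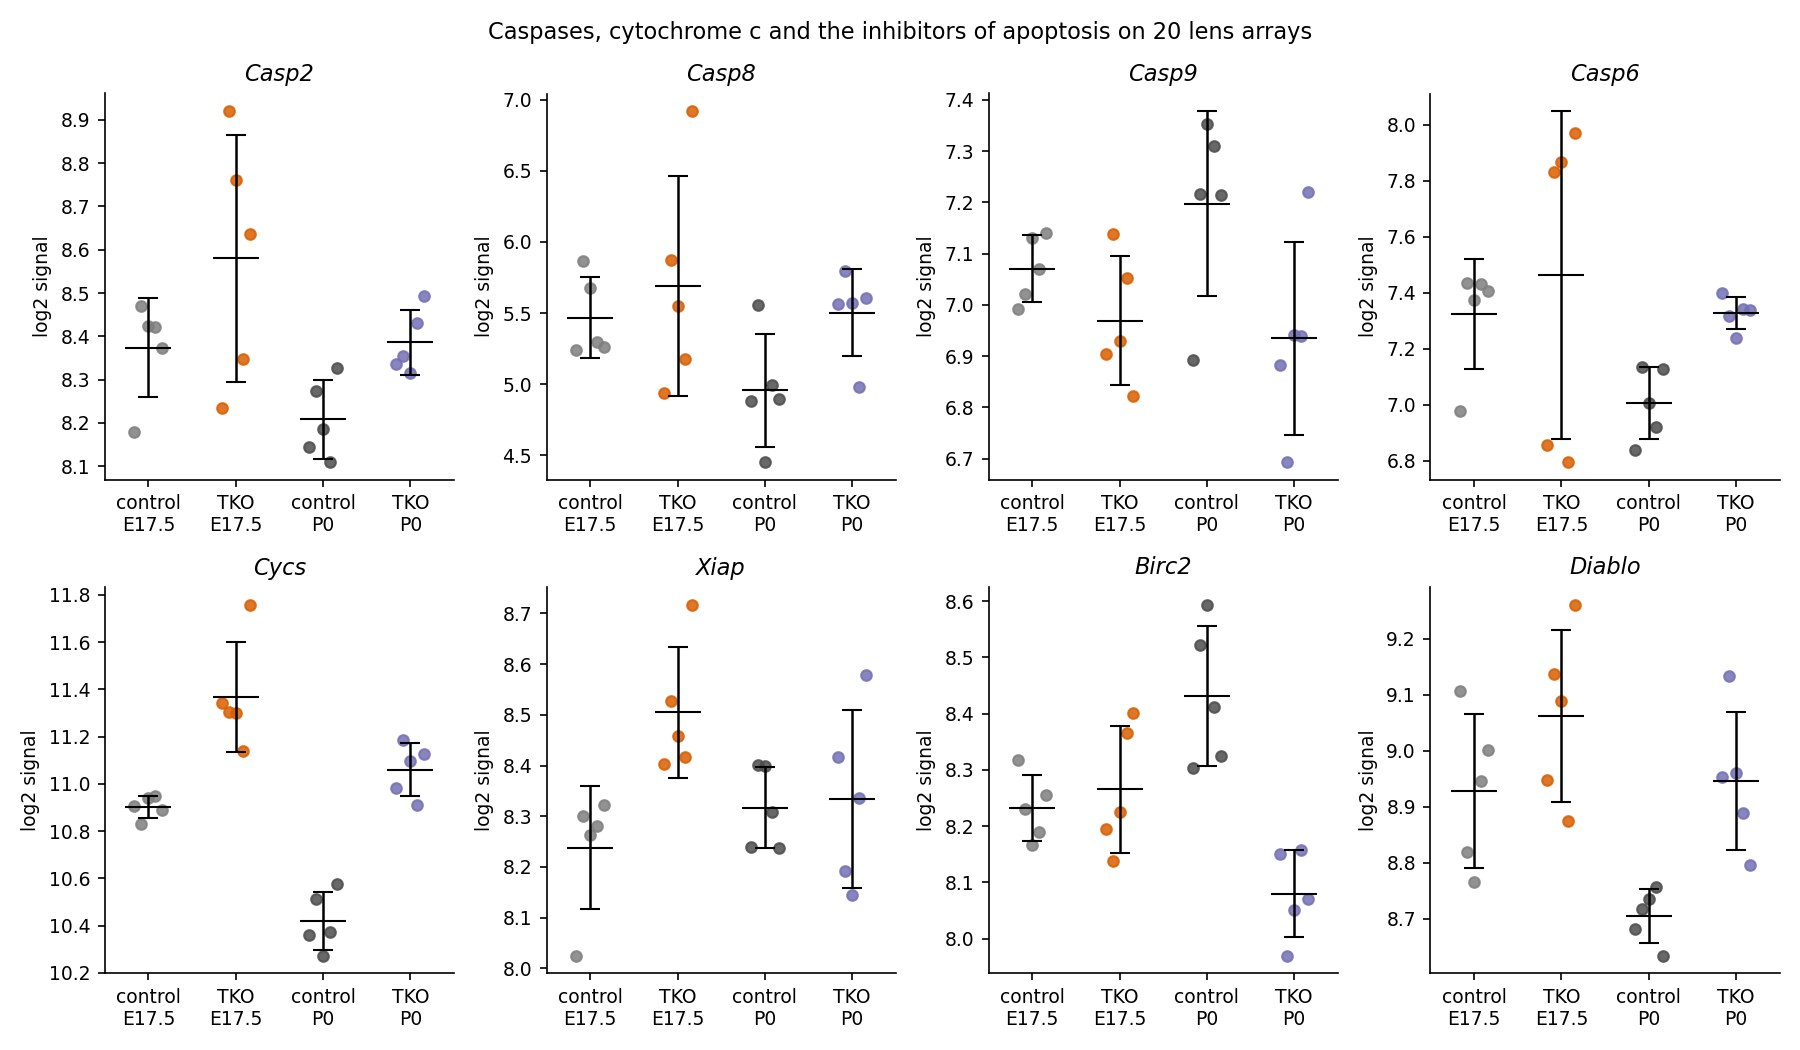
Log2 signal of the 8 genes (y axis, own scale per panel) on each of the 20 arrays, by group (x axis); points are arrays, horizontal lines group means and bars SDs of 5 arrays. Cycs lay lowest in control P0 lenses (mean 10.42) and highest in TKO E17.5 lenses (mean 11.37), and Birc2 lay lowest in TKO P0 lenses (mean 8.08). The wide bars of Casp2, Casp6 and Casp8 belong to the TKO E17.5 group.

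**Figure D2:**
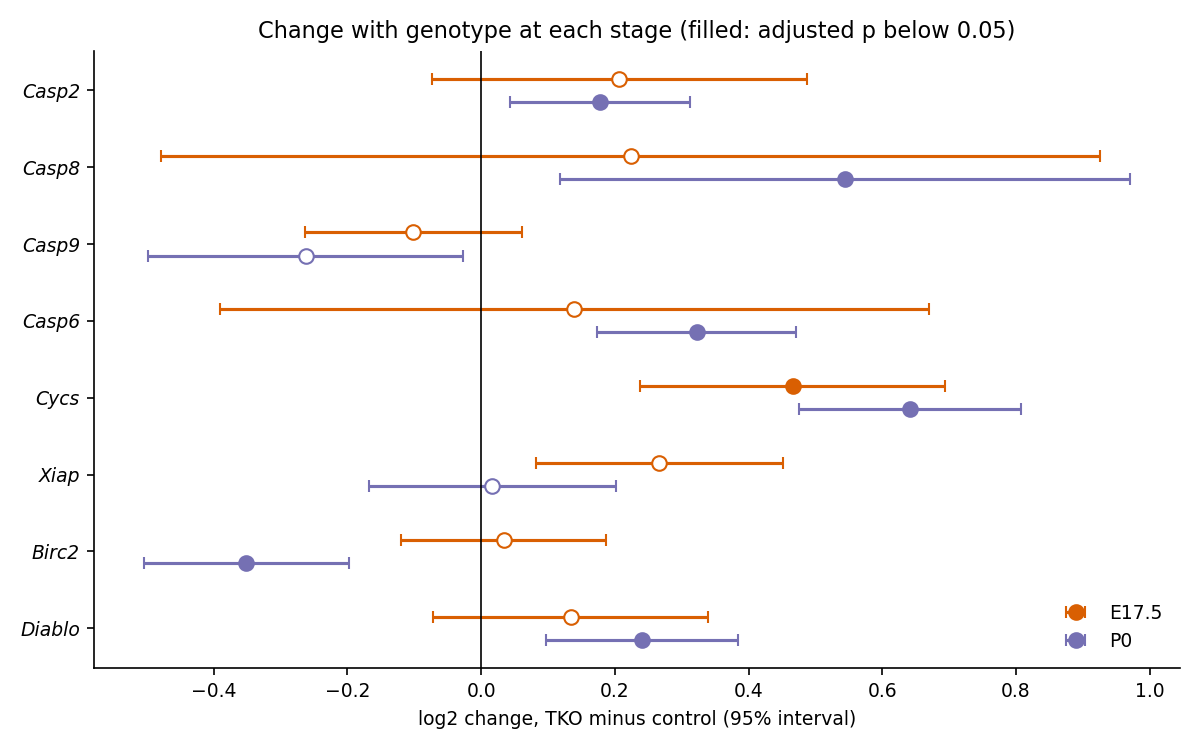
Log2 change, TKO minus control (x axis), with its 95% interval for each gene at E17.5 (orange) and P0 (purple); filled points have an adjusted p below 0.05. At P0, 5 genes lay to the right of 0 and Birc2 to the left among those filled; at E17.5 the Cycs point alone was filled.

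Among the initiators, Casp2, an ancient caspase linked to the response to DNA damage and abnormal division, read 8.15, 8.27, 8.18, 8.11 and 8.33 on the control P0 arrays and 8.34, 8.35, 8.31, 8.43 and 8.49 on the TKO P0 arrays. The groups touched at a single pair of arrays, where the highest control stood just above the lowest TKO array. The change was 0.18 ± 0.06 (SE, limma adjusted p = 0.0386), the smallest of the 6 that passed. It was 0.15 to 0.21 when each array was left out in turn, and passed in 3 of those 10 fits (adjusted p 0.0263 to 0.0986). The fits without control replicate 1, 6 or 7 or TKO replicate 17, 18, 21 or 22 did not pass. With each array centred on its median it became 0.16 (adjusted p = 0.0685).

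At E17.5, Casp2 read 8.18, 8.47, 8.42, 8.42 and 8.37 on control arrays and 8.23, 8.92, 8.76, 8.35 and 8.64 on TKO arrays. The TKO replicates 25, 26 and 28 stood above every control and replicates 24 and 27 stood within the control range. The change was 0.21 ± 0.13 (adjusted p = 0.321). Its interval, -0.07 to 0.49, included the P0 change.

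Since E2F factors were the genes deleted, the promoters of the 8 genes were searched for the E2F consensus in its 4 forms TTTCCCGC, TTTCGCGC, TTTGCCGC and TTTGGCGC, on both strands. The sequences are those of RefSeq (GRCm38.p6), from 250 bases before to 50 after each annotated start, and 11 such promoters matched the 8 genes. A match was found in 1 of the 11, that of Casp2, as in 2.26% of all 32851 promoters. It was TTTCCCGC on the gene's strand, 97 to 90 bases before the start (chr6:42264888-42264895). The stretch of 167 bases of the Casp2 promoter that lies outside the annotated span of the gene (chr6:42264735-42264901, plus strand) is shown because it holds that match, in capitals.
Casp2: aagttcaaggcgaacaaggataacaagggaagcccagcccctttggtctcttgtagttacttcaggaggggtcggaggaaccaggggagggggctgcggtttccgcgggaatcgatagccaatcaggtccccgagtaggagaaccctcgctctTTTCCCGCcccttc
A match of letters shows neither binding nor a cause, and the absence of a match in the other 10 says only that these letters are not in those windows.

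Casp8, the initiator of death receptors, lay close to the array median. It was above the array median on 5 control and 3 TKO arrays at E17.5 and on 1 control and 4 TKO arrays at P0. At P0 it read 4.88, 5.56, 4.45, 5.0 and 4.90 on control arrays and 5.56, 5.79, 5.57, 4.98 and 5.60 on TKO arrays. The groups overlapped, because control replicate 5 stood at the TKO level and TKO replicate 21 at the control level. The change was 0.54 ± 0.19 (adjusted p = 0.0443). Of 10 fits that left out 1 array, 2 passed, those without control replicate 5 or TKO replicate 21, and the change ranged from 0.42 to 0.69 (adjusted p 0.0103 to 0.102). The E17.5 change was 0.22 ± 0.32 (adjusted p = 0.681), with control arrays at 5.24, 5.87, 5.67, 5.29 and 5.26 and TKO arrays at 4.94, 5.87, 5.55, 5.18 and 6.92. The highest of these, TKO replicate 28, also had the highest mean of the macrophage markers of its group (7.43, against a group median of 6.03) and of the endothelium and pericyte markers (8.66, against 6.98), and the part of those cells in its Casp8 signal was not tested.

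Casp9, the initiator of the apoptosome, read 6.89, 7.22, 7.35, 7.31 and 7.21 on control P0 arrays and 6.88, 6.69, 6.94, 6.94 and 7.22 on TKO P0 arrays. The change of -0.26 ± 0.11 did not pass (adjusted p = 0.0728), and its 95% interval ran from -0.50 to -0.03. Control replicate 1 and TKO replicate 22 each stood apart from their own group toward the other, and the change passed without either of them (-0.34, adjusted p = 0.0209, and -0.33, adjusted p = 0.0202). It also passed after quantile normalization (adjusted p = 0.0494) and with array weights (adjusted p = 0.0117). At E17.5 it was -0.10 ± 0.07 (adjusted p = 0.396). The other tested probe sets of Casp9 had changes of 0.23 and -0.16 at E17.5 and of 0.10 and -0.01 at P0, so the probe sets differed in sign and none passed.

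Casp6, an executioner caspase that cuts nuclear lamins, read 6.84, 7.13, 7.01, 6.92 and 7.13 on control P0 arrays and 7.40, 7.32, 7.24, 7.34 and 7.34 on TKO P0 arrays. Every TKO array stood above every control array. The change was 0.32 ± 0.07 (adjusted p = 0.00408), and it passed in all 10 fits that left out an array. A second probe set of Casp6 was too dim to be tested, with group means of 3.72 to 3.96, and the mean of both probe sets changed by 0.15 (adjusted p = 0.0981).

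At E17.5 the TKO arrays of Casp6 fell on both sides of the controls. Control arrays read 6.98, 7.43, 7.37, 7.43 and 7.40, and TKO arrays 6.86, 7.83, 7.87, 6.79 and 7.97. TKO replicates 25, 26 and 28 lay above all controls, by 0.51, 0.54 and 0.65 from the control mean, and replicates 24 and 27 lay below all of them, by 0.47 and 0.53. The mean change of 0.14 ± 0.24 (adjusted p = 0.737) therefore describes no single array. Casp2 and Casp8 split the same way, with replicates 25, 26 and 28 above the control mean and 24 and 27 below it. The retina marker mean stood 1.70, 1.30 and 0.48 above the control mean on replicates 25, 26 and 28, and 0.45 and 0.01 below it on replicates 24 and 27. With that mean as a covariate, the E17.5 changes were -0.07 for Casp6, 0.08 for Casp2 and 0.09 for Casp8 (limma adjusted p = 0.887, 0.692 and 0.905). Without it they were 0.14, 0.21 and 0.22. Whether retina cells account for the split between arrays was not tested.

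**Figure D3:**
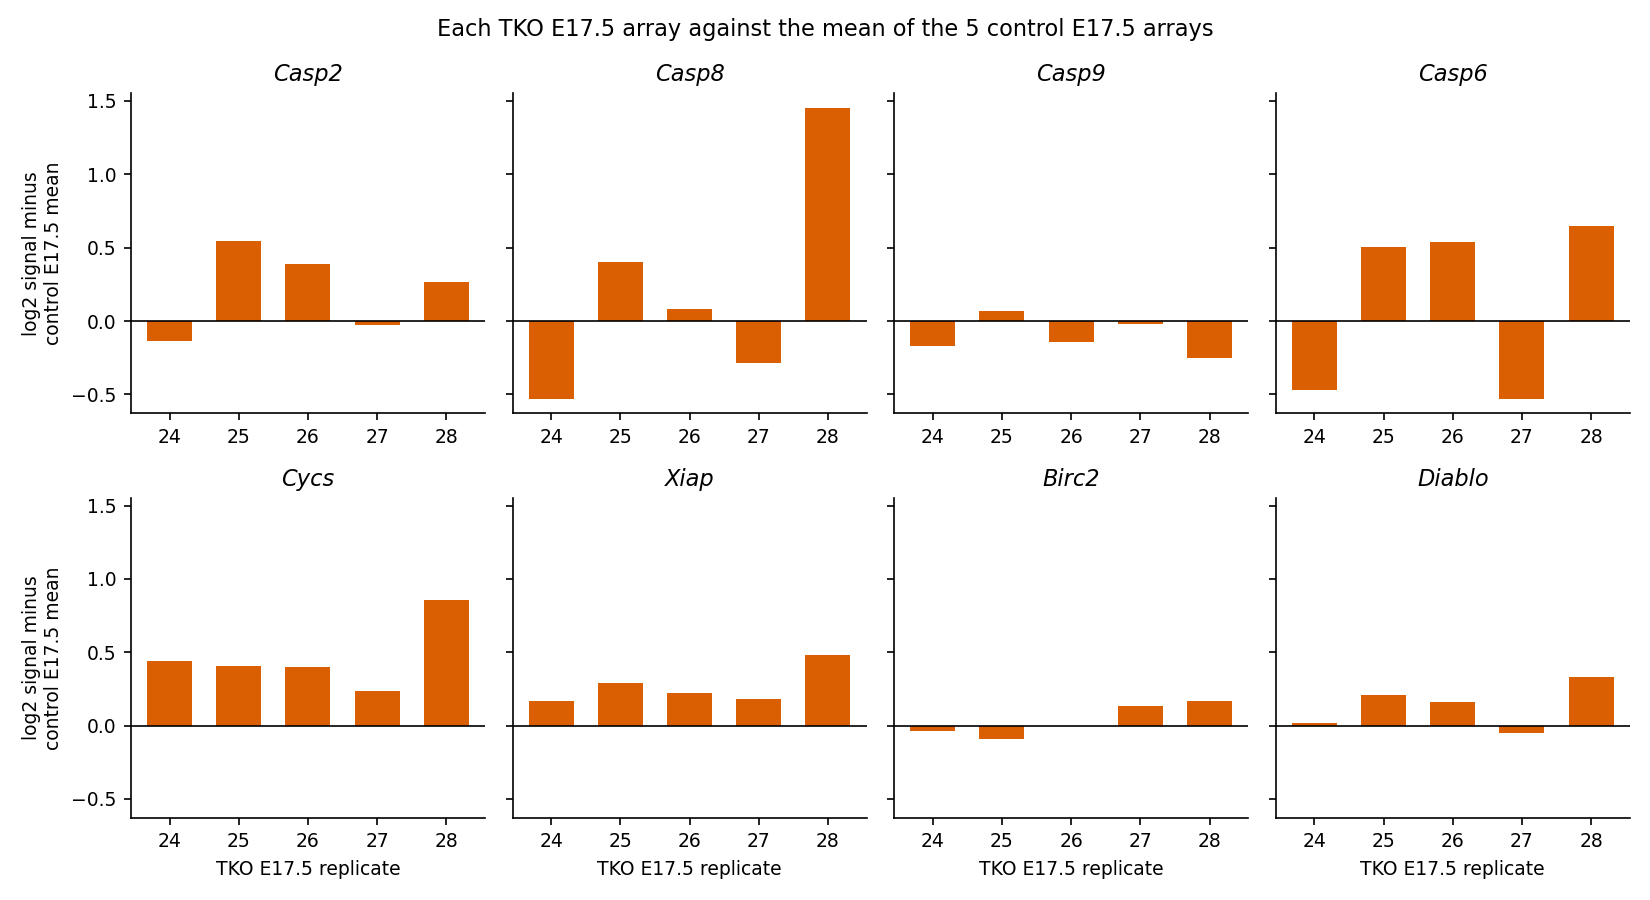
Each bar is the log2 signal of a TKO E17.5 array (x axis, replicate number) minus the mean of the 5 control E17.5 arrays (y axis). Casp2, Casp6 and Casp8 were above 0 on replicates 25, 26 and 28 and below 0 on 24 and 27, and Cycs and Xiap were above 0 on all 5.

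Cycs, the haem protein that carries electrons from complex III to complex IV and starts apoptosome assembly in the cytosol, gave the clearest change. On control P0 arrays it read 10.36, 10.51, 10.27, 10.37 and 10.57, and on TKO P0 arrays 10.98, 11.19, 11.10, 10.91 and 11.12. The groups were separated by a gap wider than the range of either. The change was 0.64 ± 0.08 (adjusted p = 0.000244), or 1.56-fold, and passed in all 10 fits that left out an array (0.60 to 0.68). At E17.5, control arrays read 10.91, 10.83, 10.94, 10.95 and 10.89 and TKO arrays 11.34, 11.31, 11.30, 11.14 and 11.76. All 5 TKO arrays were higher than every control, including replicates 24 and 27. The change was 0.47 ± 0.10 (adjusted p = 0.0435). Its size stayed at 0.37 to 0.52 when an array was left out, but it passed in 2 of those 10 fits, without TKO replicate 27 or 28 (adjusted p 0.0115 to 0.106 over the 10). With the retina marker mean or Xist as a covariate it was 0.47 in each (adjusted p = 0.0882 and 0.0735).

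The size of the Cycs change depended on the probe set. In a fit of all probe sets, in which 7.42% were called at E17.5 and 38.9% at P0, all 3 tested Cycs probe sets passed at P0, with changes of 0.64 ± 0.08, 0.34 ± 0.08 and 0.20 ± 0.06 (adjusted p = 0.000229, 0.00884 and 0.0220). At E17.5 their changes were 0.47, 0.18 and 0.12, and only the one with the highest mean passed (adjusted p = 0.0253). That mean was taken over all arrays, TKO included. In control lenses the probe set that gave 0.18 was the brighter, at 11.03 against 10.90 at E17.5 and 10.53 against 10.42 at P0. The choice of the Cycs probe set was therefore not independent of the values tested. The one brighter in controls did not pass at E17.5 in the same limma fit (adjusted p = 0.296). The fourth Cycs probe set, with group means of 3.76 to 4.06, was not tested. The probe set that gave 0.20 at P0 still had TKO arrays (8.89, 8.81, 8.95, 8.94 and 8.92) wholly above control arrays (8.70, 8.78, 8.57, 8.75 and 8.73).

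The Cycs promoter (chr6:50566570-50566819, minus strand, the 250 bases before the start) is shown because this gene changed most clearly and its promoter held no E2F consensus. Its capitals mark 2 motifs that were searched after the sequence had been read. They are the cyclic AMP response element TGACGTCA, 169 to 162 bases before the start, and the core GCATGCGC of the site of NRF1, a regulator of respiratory genes, 60 to 53 bases before it.
Cycs: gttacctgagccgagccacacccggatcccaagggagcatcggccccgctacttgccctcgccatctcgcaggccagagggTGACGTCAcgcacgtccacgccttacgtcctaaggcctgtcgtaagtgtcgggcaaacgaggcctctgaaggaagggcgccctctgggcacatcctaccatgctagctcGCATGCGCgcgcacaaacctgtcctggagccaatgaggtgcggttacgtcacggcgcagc
Searched on both strands, TGACGTCA was in 1.79% of all promoters and GCATGCGC in 2.71%, and neither overlapped another motif. Among the promoters of the 8 genes, TGACGTCA was also in that of Birc2, 35 to 28 bases before the start, and GCATGCGC in no other.

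Among the IAPs, Birc2 (cIAP1), a ubiquitin ligase that acts at tumour necrosis factor receptors upstream of Casp8, was the only one of the 8 genes called lower at P0. Control P0 arrays read 8.30, 8.52, 8.59, 8.41 and 8.32, and TKO P0 arrays 8.15, 7.97, 8.05, 8.16 and 8.07. Every TKO array was below every control array. Birc2 fell by 0.35 on the log2 scale (SE 0.07, adjusted p = 0.00298), a level 1.28-fold lower, and passed in all 10 fits that left out an array. E17.5 groups overlapped, at 8.32, 8.23, 8.17, 8.19 and 8.25 on control arrays and 8.19, 8.14, 8.23, 8.37 and 8.40 on TKO arrays, with a change of 0.03 ± 0.07 (adjusted p = 0.784).

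Xiap, the X-linked inhibitor that binds Casp9 directly, read 8.03, 8.30, 8.26, 8.28 and 8.32 on control E17.5 arrays and 8.40, 8.53, 8.46, 8.42 and 8.72 on TKO E17.5 arrays. All TKO arrays were above all controls, yet the change of 0.27 ± 0.08 did not pass (adjusted p = 0.0945). At P0 the groups overlapped fully, with control arrays between 8.24 and 8.40 and TKO arrays between 8.15 and 8.58, and the change was 0.02 ± 0.08 (adjusted p = 0.896, interval -0.17 to 0.20).

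A dimmer Xiap probe set gave larger changes. On it, E17.5 controls read 5.92, 5.99, 5.98, 5.79 and 5.76 and TKO arrays 6.43, 6.61, 6.43, 6.55 and 6.40. The groups did not overlap, and the change was 0.60 ± 0.08 (adjusted p = 0.00192 among all probe sets). At P0 its change was 0.26 ± 0.08 (adjusted p = 0.0235), with overlapping groups. The other 5 Xiap probe sets were too dim to be tested, so which of the 2 readings holds for Xiap mRNA as a whole was not tested. Xist, which is made from an inactive X chromosome, was above 8 on 3 control and 4 TKO arrays at E17.5 and on 3 control and 5 TKO arrays at P0. With Xist as a covariate, the change at the brighter Xiap probe set was 0.27 at E17.5 (adjusted p = 0.136) and 0.02 at P0 (adjusted p = 0.908).

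Diablo (Smac), the mitochondrial protein that frees caspases from IAPs, read 8.68, 8.72, 8.73, 8.76 and 8.63 on control P0 arrays and 8.95, 9.13, 8.96, 8.89 and 8.80 on TKO P0 arrays. The groups did not overlap. The change was 0.24 ± 0.07 (adjusted p = 0.0138), and it passed in all 10 fits that left out an array (0.19 to 0.28). At E17.5 it was 0.13 ± 0.09 (adjusted p = 0.378), with controls between 8.77 and 9.11 and TKO arrays between 8.87 and 9.26. A second, dimmer Diablo probe set had changes of -0.11 and -0.17 that did not pass, and the mean of both probe sets changed by 0.03 at P0 (adjusted p = 0.661), so the direction at P0 rests on the brighter one.

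**Figure D4:**
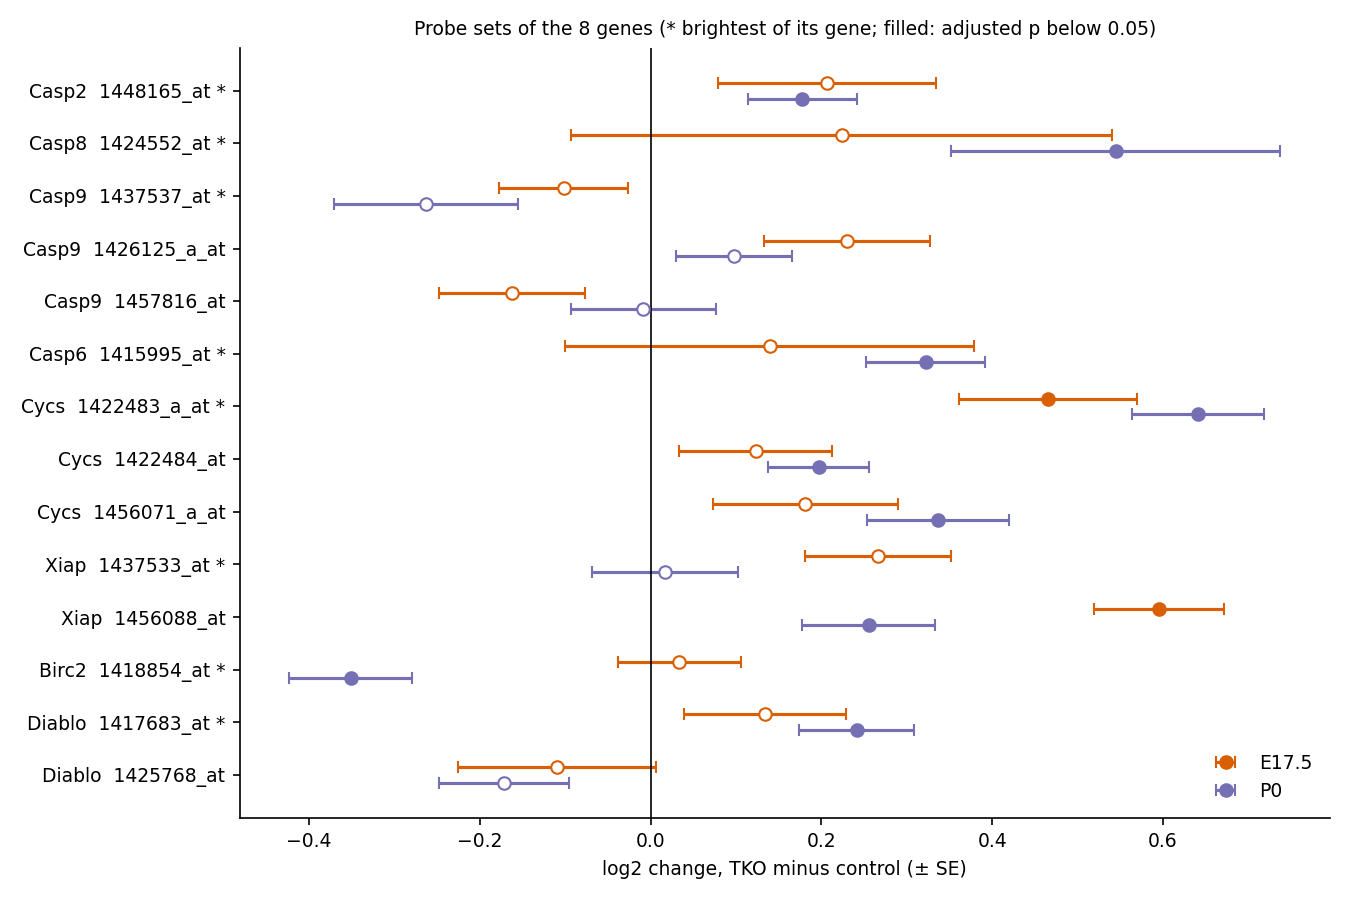
Log2 change, TKO minus control (x axis, bars are SE), of the 14 tested probe sets at E17.5 (orange) and P0 (purple); an asterisk marks the brightest of each gene and filled points an adjusted p below 0.05 among all probe sets. At P0, 8 probe sets were called higher and 1, that of Birc2, lower; at E17.5, 2 were called higher, 1 of Cycs and 1 of Xiap.

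The retina, pigment cell and macrophage markers that were higher at P0, and the lens epithelium markers, differed between the same groups of arrays as these genes. Of these lists, only the retina mean was fitted as a covariate. With the retina marker mean as a covariate, 2 of the 8 genes passed at P0: Cycs (0.78 ± 0.12, adjusted p = 0.00864) and Birc2 (-0.41 ± 0.12, adjusted p = 0.0489). Casp6 (0.35, adjusted p = 0.0765), Casp8 (0.96, 0.0556), Casp2 (0.18, 0.284) and Diablo (0.21, 0.230) kept their sign and did not pass. The retina means of the P0 groups did not overlap, so marker level and genotype can hardly be told apart in that fit, which also called fewer of all genes (1377 against 4700). With all 20 arrays in a fit, whose spread includes the TKO E17.5 arrays, Casp2, Casp6 and Casp8 did not pass at P0 (adjusted p = 0.186, 0.190 and 0.140), while Casp9 did (-0.26, adjusted p = 0.0362). Without the filter on dim genes Casp2 and Casp8 did not (0.0634 and 0.0552), and with Xist as a covariate Diablo did not (0.0556).

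In control lenses, 4 of the 8 genes changed between E17.5 and birth, against 37.4% of all genes. Cycs fell by 0.48 (SE 0.06, adjusted p = 0.000214), Casp6 fell by 0.32 (SE 0.09, adjusted p = 0.0221), Diablo fell by 0.22 (SE 0.06, adjusted p = 0.0194) and Birc2 rose by 0.20 (SE 0.06, adjusted p = 0.0262). For Cycs and Diablo all control P0 arrays lay below all control E17.5 arrays, a separation found for 24.9% of all genes. Left-out arrays ended the call of Casp6 in 5 of 10 fits (adjusted p up to 0.0538), those without control E17.5 replicate 11, 13 or 15 or control P0 replicate 1 or 7. They ended that of Birc2 in 4 of 10 (adjusted p up to 0.0619), those without control E17.5 replicate 12 or 13 or control P0 replicate 5 or 6. In the fit of all probe sets, 34.5% were called in this comparison. There the dimmer Diablo probe set was called in the opposite direction, with a rise of 0.27 (SE 0.07, adjusted p = 0.0131). The direction of the Diablo change with stage therefore depended on the probe set. With the mean of its probe sets the Diablo change was 0.022 (adjusted p = 0.806) and that of Casp6 was -0.15 (adjusted p = 0.0770). With all 20 arrays in a fit neither passed (0.0616 and 0.254), and with the retina mean as a covariate Diablo did not (0.0923). Casp8 and Casp2, at -0.51 ± 0.19 and -0.17 ± 0.06, did not pass (adjusted p = 0.0536 and 0.0618), and neither did Casp9 (0.13, 0.233) or Xiap (0.08, 0.352). In the fit of all probe sets, a dimmer Casp9 probe set was called higher (0.24 ± 0.07, adjusted p = 0.0245) and another did not pass (0.11, 0.381). The mean of the Casp9 probe sets passed (0.16, adjusted p = 0.0326).

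In TKO lenses, 0 of the 8 genes changed between E17.5 and birth by limma at an adjusted p below 0.05, where 14.6% of all genes did, and 2, Cycs and Birc2, had an unadjusted p below 0.05. None had groups that did not overlap, against 11.8% of all genes. Cycs changed by -0.31 ± 0.11 (adjusted p = 0.0882) and Birc2 by -0.19 ± 0.08 (adjusted p = 0.130). Among single probe sets, of which 13.3% were called in this comparison, 1 of 14 was called, a dimmer one of Cycs (-0.40 ± 0.09, adjusted p = 0.0204). The control P0 arrays serve both the comparison of stages in controls and that of genotypes at P0, so these values are not independent of each other.

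The difference between the genotype effects at P0 and at E17.5 was tested over all 20 arrays. It passed for 0 of the 8 genes by limma, against 0.177% of all genes, and 2 (Birc2 and Xiap) had an unadjusted p below 0.05. For Birc2 it was -0.38 ± 0.10 (adjusted p = 0.0960) and for Xiap -0.25 ± 0.12 (adjusted p = 0.315). For Cycs it was 0.18 ± 0.13 (adjusted p = 0.527, interval -0.10 to 0.45). That more of the 8 genes were called at P0 than at E17.5 is therefore not shown to be a change in any single gene's response.

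By order of group means, 6 of the 8 genes were highest in TKO E17.5 lenses (Casp2, Casp8, Casp6, Cycs, Xiap and Diablo), and 5 of these were lowest in control P0 lenses, all but Xiap. In Casp2, Casp6, Casp8 and Diablo the TKO P0 mean exceeded the control E17.5 mean by 0.0028 to 0.035, at 8.39 and 8.37, 7.33 and 7.32, 5.50 and 5.47, and 8.95 and 8.93. For Cycs the TKO P0 mean of 11.06 was above the control E17.5 mean of 10.90, with ranges that overlapped. Birc2 and Casp9 ran in another order, highest in control P0 lenses (8.43 and 7.20) and lowest in TKO P0 lenses (8.08 and 6.94). Neighbours in each order overlapped in range, except that Cycs and Diablo in control P0 lenses and Birc2 in TKO P0 lenses lay below the next group with no overlap. These orders are those of the brightest probe set of each gene. The dimmer Diablo probe set was highest in control P0 lenses (5.84) and lowest in TKO E17.5 lenses (5.47). A dimmer Casp9 probe set was highest in TKO P0 lenses (6.57) and lowest in control E17.5 lenses (6.23). The other was lowest in TKO E17.5 lenses (6.56). On the other tested Cycs probe sets, control E17.5 means (9.17 and 11.03) exceeded TKO P0 means (8.90 and 10.87).

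The wider pathway was read from gene lists written from general knowledge, whose counts at P0 stand against 20.2% of all genes called higher and 19.4% called lower. Of 4 tested members of the IAP family, 1 was higher at P0, Birc5 (survivin, a chromosomal passenger protein of dividing cells, 0.87 ± 0.20, adjusted p = 0.00608). The 2 lower ones were Birc2 and Birc6 (a very large ubiquitin conjugating enzyme, -0.48 ± 0.10, adjusted p = 0.00424), and Xiap did not pass. Of 4 IAP antagonists 2 were higher, Diablo and the mitochondrial protease Htra2 (0.22 ± 0.08, adjusted p = 0.0456), and 0 were lower. Of 6 genes of the apoptosome and cytochrome c list, Cycs alone was called at either stage, and Apaf1, the apoptosome scaffold, changed by 0.45 ± 0.22 at E17.5 and 0.28 ± 0.12 at P0 (adjusted p = 0.229 and 0.0781). In control lenses 5 of these 6 fell between the stages, as did 24.9% of all genes.

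Of 11 genes of the Casp8 and Casp2 platforms 3 were higher at P0 and 0 lower, where 20.2% of all genes were higher and 19.4% lower. They were the adaptor Traf2 (0.25 ± 0.08, adjusted p = 0.0284) and the death receptors Fas (0.69 ± 0.23, adjusted p = 0.0325) and Tnfrsf10b (0.40 ± 0.14, adjusted p = 0.0388). The adaptor Fadd (0.03), the Casp8 regulator Cflar (-0.14) and the Casp2 partners Pidd1 (0.18) and Cradd (-0.06) did not pass. At E17.5, 0 of the 11 were called by limma and 4 had an unadjusted p below 0.05, with Cflar the nearest to a call (-0.27 ± 0.08, adjusted p = 0.0741). Of the remaining caspases only Casp14, a caspase of skin cells, was bright enough to be tested, and it changed by -0.15 at E17.5 and 0.0027 at P0, neither of which passed.

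The mitochondrial gate, the Bcl2 family and the channels of the outer membrane, had members called both ways at P0, with 2 of 11 higher and 4 lower, against 20.2% and 19.4% of all genes. Bad (0.25) and the channel Vdac2 (0.16) were higher. The inhibitor of apoptosis Bcl2 (-0.50 ± 0.11, adjusted p = 0.00480) was lower, and so were the promoters of apoptosis Bcl2l11 (-0.43), Bid (-0.33) and Bbc3 (-0.30). At E17.5, Bak1, a pore protein, was the only one called, at -0.43 ± 0.08 (adjusted p = 0.0251). Bax was not analysed here.

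Of 12 caspase substrates and nucleases, 2 were higher at P0, the lamin Lmna (0.36) and the nuclease Endog (0.24), and 4 were lower, so that 6 of 12 were called against 39.6% of all genes. The largest fall was that of the lysosomal nuclease Dnase2a, at -0.51 ± 0.08 at E17.5 (adjusted p = 0.0160) and -0.87 ± 0.11 at P0 (adjusted p = 0.000390). The kinase Rock1 (-0.53), Dnase2b, which degrades the DNA of lens fibre nuclei (-0.40), and Acin1 (-0.17) were the others.

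Since Cycs is also a part of the respiratory chain, complexes III and IV were set beside it. At P0, 7 of 16 were higher and 0 lower, against 20.2% and 19.4% of all genes, with a median change of 0.13 against -0.01. The complex III subunit Uqcrq rose by 0.45 ± 0.09 (adjusted p = 0.00327) and the complex IV subunit Cox8a by 0.22 ± 0.05 (adjusted p = 0.00551). At E17.5, 0 of 16 were called by limma and 2 had an unadjusted p below 0.05, with a median of 0.07. The smallest adjusted p there was that of Uqcrc1, a core subunit of complex III (-0.41 ± 0.15, adjusted p = 0.133).

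The genes whose log2 values followed each member most closely over the 20 arrays are given as a description, since all share the same arrays and groups. By Pearson's r they were Papss1 (0.959) and Ugdh (0.938) for Casp2, Slc12a7 and Rreb1 (0.924 each) for Casp6, Lxn (0.954) and Igfbp4 (0.941) for Casp8, and Ss18 (0.871) and Foxp1 (0.870) for Casp9. For Cycs they were Nip7 (0.974) and Mrps16 (0.973). For Xiap they were Trmt2b (0.823) and Stx12 (0.816), for Birc2 Mtmr6 (0.882) and Mau2 (0.867), and for Diablo Nans (0.885) and Pms2 (0.881). Cycs had the closest match of the 8 and Xiap the least close.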

How the data were processed

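Lens RNA of 20 samples was measured on Affymetrix arrays. The authors deposited log2 values, 1 per probe set and array, in a range (1.72 to 15.0) that gave the scale. The sources used here do not give their normalization, and they were used unchanged. Array medians differed little (5.05 to 5.25). The platform annotation named 1 gene for 34945 of 45101 probe sets, several for 932 and none for 9160, and 64 were control probe sets. Symbols were updated through a RefSeq table (GRCm38.p6). Each gene was read at its probe set with the highest mean and tested when that was above the 50th percentile of the array on at least 5 of 20 arrays.

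Groups were compared with limma (version 3.58.1, R 4.3.3) in fits of the 2 groups concerned (8 residual degrees of freedom), or of all 20 arrays for the difference of effects (16). Two-sided tests were used throughout. Benjamini-Hochberg adjustment ran over all 11859 genes, with 0.05 as the threshold for a call. Errors beside means are SDs of 5 arrays, errors beside changes SEs. The fit was tested on simulated data. The p-values measure the spread between mice, whose litters and sex are not in the labels, and precision is limited by how many arrays there are.

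The 8 genes, the gene lists and the tests were chosen with earlier results of these data known. Named from each list were up to 2 genes called higher and 2 lower, or else the gene with the smallest adjusted p, and for each member the 2 genes most correlated with it. Apaf1, Fadd, Pidd1, Cradd, Tnfrsf10b, Bid, Bbc3, Dnase2b and Acin1 were added after their values were seen. Alternatives covered normalization, the filter, probe sets, the variance model, covariates and left-out arrays.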

Additional observations from a re-analysis of the deposited data

Results flagged for a closer look

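In 3 of 32 groups of 5 arrays (8 genes in 4 groups), an array stood so far from the others that the gap exceeded Dixon's 95% critical value. Chance alone flags about 1 in 20 groups. On control E17.5 replicate 10, Casp6 was 6.98, where the other 4 arrays read 7.37 to 7.43, and Xiap was 8.03, where they read 8.26 to 8.32. On TKO P0 replicate 21, Casp8 was 4.98, where the others read 5.56 to 5.79.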

How the results depend on the processing

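Over 40 changes of single genes (8 genes in 5 comparisons), 966 values were computed under alternatives. The call was kept in 880, lost in 54 and gained in 32, and 27 changed sign, of which 1 had been called: the change of Diablo between stages in controls, 0.022 with the mean of its probe sets. The rise of Cycs and fall of Birc2 at P0 and the fall of Cycs with stage in controls were called in all 22 of their settings. Genes of the 8 called at E17.5 were 0 with the mean of probe sets, without _s_at, _x_at and _a_at probe sets, with retina markers or with Xist as covariate, 2 with all 20 arrays in 1 fit, 3 with array weights, and 0 to 1 with an array left out. At P0 they were 2 with retina markers as covariate and 4 with no filter, with the mean of probe sets or with all 20 arrays. They were 7 there after quantile normalization or with array weights, and 4 to 6 with an array left out. Between stages they were 2 in controls with all 20 arrays (2 to 5 with an array left out). In TKO lenses they were 1 without the suffixed probe sets and 2 with array weights or all 20 arrays. For the difference of effects they were 2 with array weights and 0 to 1 with an array left out. Without TKO E17.5 replicates 24 and 27, which were left out because they resembled controls, so that this is no test, 4 were called at E17.5 and 2 between stages in TKO lenses. Calls among all genes at E17.5 were 580 after quantile normalization, 197 with centred arrays, 3681 with array weights, 99 with retina markers and 134 with Xist as covariate, 1541 with all 20 arrays, 2953 without replicates 24 and 27, and 49 to 1129 with an array left out. At P0 they were 1377 with retina markers. Between stages in TKO lenses they were 2644 with no filter, 884 with the 75th percentile filter, 5970 with array weights, 3940 with all 20 arrays and 440 to 2716 with an array left out, and in controls 2046 with all 20 arrays. For the difference of effects they were 2585 with array weights, 4 with retina markers, 11 with Xist, 45 without replicates 24 and 27, and 0 to 321 with an array left out. The causes were not tested. No paired analysis was possible because the groups share no replicate numbers.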
